A study of Mus musculus with 6 samples.

Results

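The genes *Atf4*, *Ddit3*, *Atf5*, *Atf3*, *Cebpb*, *Trib3*, *Ppp1r15a*, *Chac1*, *Sesn2* and *Nupr1* form the transcription factors at the core of the ATF4 and CHOP branch of the stress response and the feedback genes they switch on. Found by their gene symbols, they make up 10 of the 20788 genes that any library listed, and all 10 were listed in every library. They were selected on measured values, since their expression in Tyr-H compared with Tyr-L cells was already known when the set was drawn up. That contrast is therefore given for them as a description, and nothing is read from a test of it. RNA had been sequenced from Tyr-L and Tyr-H cells, which are subclones of B16 mouse melanoma (strain C57BL/6) with low and high activity of tyrosinase, the first enzyme of melanin synthesis. Each group had 3 libraries, both were grown in low-glucose DMEM with fetal bovine serum and antibiotics, and no treatment separated them. The cells had been cloned by dilution, and the sources used here leave unstated how many cultures, and how many subclones, the 3 libraries of each group represent. The errors and p-values may therefore measure technical spread only, and the groups stand for these subclones rather than for B16 cells in general. In bulk RNA, fewer cells with a transcript and less of it per cell cannot be told apart.

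ATF4 is a bZIP transcription factor whose messenger RNA is translated better when the initiation factor eIF2 is phosphorylated, which stress kinases do on amino acid shortage, misfolded protein in the endoplasmic reticulum, heme shortage or double-stranded RNA. ATF4, often as a heterodimer with a C/EBP protein, binds composite C/EBP-ATF elements and switches on genes for amino acid supply together with the gene of CHOP (*Ddit3*). Several targets feed back: the pseudokinase TRIB3 restrains ATF4 and CHOP, and GADD34 (*Ppp1r15a*) brings a phosphatase to eIF2 and restores translation.

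Promoter sequence is shown first because composite C/EBP-ATF elements are the sites through which ATF4 acts. RefSeq promoters of build GRCm38.p6, reaching from 250 bases before the start of a transcript to 50 bases after it, were found for all 10 genes, 11 promoters in all because *Atf5* had 2. The letters TGATGNAA, the core of a composite element, were searched on both strands and stood in 4 of the 11 promoters, those of *Trib3*, *Chac1*, *Atf3* and *Nupr1*. They stood in 1304 of 32851 promoters of all genes (3.97%). With the window shortened to 100 bases before the start, *Trib3* alone of the 11 held TGATGNAA (2.07% of all promoters) and 0 of 11 held TGATGCAA (0.463%). The genes are known members of the ATF4 branch, partly because ATF4 is known to act on some of them through such elements, so these counts are a description and no independent support. The stricter letters TGATGCAA were in 3 of the 11 promoters and in 0.895% of all promoters. The cyclic AMP response element TGACGTCA was in 1 of the 11, that of *Ppp1r15a*, and in 1.79% of all promoters. The endoplasmic reticulum stress element (ERSE), made of CCAAT and CCACG 9 bases apart, was in 0 of the 11 and in 0.119% of all promoters. The search says nothing of elements outside these windows, and a match is not evidence that a protein binds there. The 5 matches are printed with 10 bases on each side, 5′ to 3′ on the strand of the gene, with the match in capitals. In the first 4 the core runs on the opposite strand, so the capitals are its reverse complement.

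Trib3, chr2:152344029-152344056: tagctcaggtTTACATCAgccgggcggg
Chac1, chr2:119351039-119351066: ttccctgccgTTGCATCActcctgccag
Atf3, chr1:191183426-191183453: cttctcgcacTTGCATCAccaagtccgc
Nupr1, chr7:126625563-126625590: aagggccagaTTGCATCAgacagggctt
Ppp1r15a, chr7:45526263-45526290: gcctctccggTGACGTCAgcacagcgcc

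*Chac1*, *Atf3* and *Nupr1* carried the same 8 letters, TGATGCAA on the opposite strand, and *Trib3* differed from them within the core. The match of *Chac1* lay 193 to 186 bases before the start of its RefSeq transcript, and those of *Atf3* and *Nupr1* both lay 110 to 103 bases before it. The match of *Trib3* was the only one after a start, at 14 to 21 bases, and it lay upstream of the *Trib3* start in the GENCODE M21 annotation of the same build. The *Ppp1r15a* match lay 12 to 5 bases before its start. In GENCODE M21 the matches of *Trib3*, *Chac1* and *Ppp1r15a* fell outside annotated genes, that of *Atf3* fell in an intron of a longer *Atf3* transcript, and that of *Nupr1* fell in an exon of a longer *Nupr1* transcript. For wider context, the 250 bases before the start are printed for *Chac1* (plus strand), *Atf3* (minus strand) and *Ppp1r15a* (minus strand), with the same letters in capitals.

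Chac1, chr2:119350992-119351241: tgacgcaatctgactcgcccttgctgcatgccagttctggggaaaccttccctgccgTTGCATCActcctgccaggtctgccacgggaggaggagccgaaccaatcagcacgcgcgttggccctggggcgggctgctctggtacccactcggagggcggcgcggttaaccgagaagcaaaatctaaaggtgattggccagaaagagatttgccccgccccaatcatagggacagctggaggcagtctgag
Atf3, chr1:191183334-191183583: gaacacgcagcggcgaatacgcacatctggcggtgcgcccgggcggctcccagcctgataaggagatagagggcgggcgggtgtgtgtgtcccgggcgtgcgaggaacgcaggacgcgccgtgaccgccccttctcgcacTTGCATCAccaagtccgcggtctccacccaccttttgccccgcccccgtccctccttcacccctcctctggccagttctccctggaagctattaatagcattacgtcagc
Ppp1r15a, chr7:45526269-45526518: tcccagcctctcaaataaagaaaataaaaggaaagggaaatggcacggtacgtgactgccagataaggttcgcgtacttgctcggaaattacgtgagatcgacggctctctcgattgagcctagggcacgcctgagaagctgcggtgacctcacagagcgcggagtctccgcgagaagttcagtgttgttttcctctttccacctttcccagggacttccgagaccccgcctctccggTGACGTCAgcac

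Expression is given in FPKM, a unit that divides the fragments of a gene by its transcript length and by the library's mapped fragments, so levels of different genes can be compared. The 6 libraries listed 16813 to 17413 genes, and their depth was estimated from the lowest FPKM values at 19500000 to 24500000 fragments, with ranges that overlapped between the groups. At that depth the weakest value of any of the 10 genes rested on about 132 fragments. *Tyr*, whose activity names the groups, rose from 9.52 to 10.7 FPKM in Tyr-L to 19.7 to 23.8 FPKM in Tyr-H (log2 fold change 1.08, SE 0.076, adjusted p = 4e-06 from limma). All 8 melanocyte markers reached 1 FPKM in the libraries, with sums of 7554 to 7877 FPKM in Tyr-L and 5634 to 6186 FPKM in Tyr-H, and the melanocyte factor *Mitf* fell from 90.5 ± 6.64 to 25.0 ± 1.56 FPKM (SD, n = 3, adjusted p = 1e-07 from limma). Whether this shift had a part in the values below was not tested. The paper reported no difference in MITF between Tyr-H and Tyr-L cells in its protein measurements, while the values here are of RNA. None of the 15 markers of fibroblasts, immune, endothelial and epidermal cells reached 1 FPKM, the highest being 0.708 FPKM, and *Ptprc*, *Csf1r*, *Itgam*, *Cd3e*, *Cdh5* and *Kdr* were not listed.

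*Atf4* (ENSMUSG00000042406, chr15:80255184-80257541, plus strand), the factor at the head of the branch, had 124, 144 and 129 FPKM in Tyr-L and 285, 325 and 325 FPKM in Tyr-H. It had the highest level of the 10 genes in both groups and its groups did not overlap. Its mean was 132 ± 10.5 FPKM (SD, n = 3) in Tyr-L and 312 ± 23.4 FPKM (SD, n = 3) in Tyr-H, a log2 fold change of 1.24 (SE 0.067). Its log2 fold change and that of *Sesn2* were the 2 smallest of the set.

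*Ddit3* (ENSMUSG00000025408, chr10:127290774-127296288, plus strand) codes for CHOP, a C/EBP-like factor that forms dimers with other C/EBP proteins and is known for promoting cell death under lasting stress. Its values were 21.2, 26.0 and 21.0 FPKM in Tyr-L and 83.1, 115 and 125 FPKM in Tyr-H. The lowest Tyr-H library stood 3.20 times above the highest Tyr-L library, and the log2 fold change was 2.22 (SE 0.139). The spread among the Tyr-H libraries was the widest of the 10 genes, with a CV (SD over mean) of 20.2%. The annotation holds a second, short gene of the same symbol within it, and 1 row of the tables carries that symbol. *Ddit3* meets the end of *Mars*, the methionyl-tRNA synthetase on the opposite strand, which had 32.4 to 36.0 FPKM in Tyr-L and 38.2 to 40.1 FPKM in Tyr-H.

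*Atf5* (ENSMUSG00000038539, chr7:44812256-44816658, minus strand), a relative of ATF4 whose messenger RNA is under the same kind of translational control, had 30.8, 36.5 and 31.8 FPKM in Tyr-L and 114, 126 and 128 FPKM in Tyr-H. It was the second highest of the genes in both groups, with a log2 fold change of 1.90 (SE 0.067). *Nup62*, which overlaps it on the opposite strand, went the other way, from 48.4 ± 1.56 to 42.4 ± 1.06 FPKM (SD, n = 3).

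*Atf3* (ENSMUSG00000026628, chr1:191170296-191218039, minus strand) codes for a stress-induced bZIP factor that often acts as a repressor. It had 4.89, 6.85 and 5.39 FPKM in Tyr-L and 33.4, 38.1 and 38.4 FPKM in Tyr-H. The groups were 4.87 times apart at their nearest libraries, and the log2 fold change was 2.67 (SE 0.112).

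*Cebpb* (ENSMUSG00000056501, chr2:167688915-167690418, plus strand), a C/EBP factor that pairs with ATF4 and with CHOP, had 4.49, 5.63 and 4.48 FPKM in Tyr-L and 15.0, 17.8 and 21.1 FPKM in Tyr-H. The log2 fold change was 1.86 (SE 0.128), and its level was the lowest of the 10 genes in Tyr-H. *Tmem189*, which overlaps it on the opposite strand, had 86.0 to 90.6 FPKM in Tyr-L and 47.2 to 51.3 FPKM in Tyr-H, the other direction.

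*Trib3* (ENSMUSG00000032715, chr2:152337422-152344032, minus strand) showed the widest difference of the 10 genes. Its values were 7.25, 12.3 and 9.77 FPKM in Tyr-L and 104, 125 and 125 FPKM in Tyr-H, with means of 9.76 ± 2.51 and 118 ± 12.4 FPKM (SD, n = 3). The ratio of the means was 12.1, the nearest libraries were 8.44 times apart, and the log2 fold change was 3.61 (SE 0.159). Ranked from the largest increase, *Trib3* stood at place 8 among the 14336 tested genes.

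*Ppp1r15a* (ENSMUSG00000040435, chr7:45522916-45526268, minus strand), the stress-induced subunit of the eIF2 phosphatase, had 2.77, 4.07 and 2.90 FPKM in Tyr-L, the lowest mean level of the genes in that group. In Tyr-H it had 24.7, 28.4 and 31.0 FPKM. The log2 fold change was 3.09 (SE 0.138), place 17 among the tested genes.

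*Chac1* (ENSMUSG00000027313, chr2:119351229-119354381, plus strand), an enzyme that breaks down glutathione and a target of ATF4, had 4.99, 9.36 and 5.82 FPKM in Tyr-L and 33.4, 45.8 and 45.8 FPKM in Tyr-H. Its Tyr-L libraries were the most scattered of any of the genes, with a CV of 34.5%, and library 2 stood above the other two. The log2 fold change was 2.65 (SE 0.209), the largest SE of the set.

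*Sesn2* (ENSMUSG00000028893, chr4:132492032-132510501, minus strand), a leucine-binding inhibitor of the growth kinase complex mTORC1, had 8.33, 10.9 and 9.11 FPKM in Tyr-L and 19.0, 23.2 and 23.4 FPKM in Tyr-H. Its nearest libraries were 1.74 times apart and its log2 fold change was 1.20 (SE 0.108). It differed from that of *Atf4* by less than their SEs, and the order of the 2 turned after quantile normalization (1.35 in *Sesn2*, 1.24 in *Atf4*) and without Tyr-L library 2 or Tyr-H library 1.

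*Nupr1* (ENSMUSG00000030717, chr7:126623249-126630861, minus strand), a small stress-induced chromatin protein, had 3.01, 4.16 and 4.61 FPKM in Tyr-L and 33.9, 34.1 and 36.4 FPKM in Tyr-H. The log2 fold change was 3.14 (SE 0.130), and its Tyr-H libraries were the tightest of the set, with a CV of 4.07%.

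**Figure D1:**
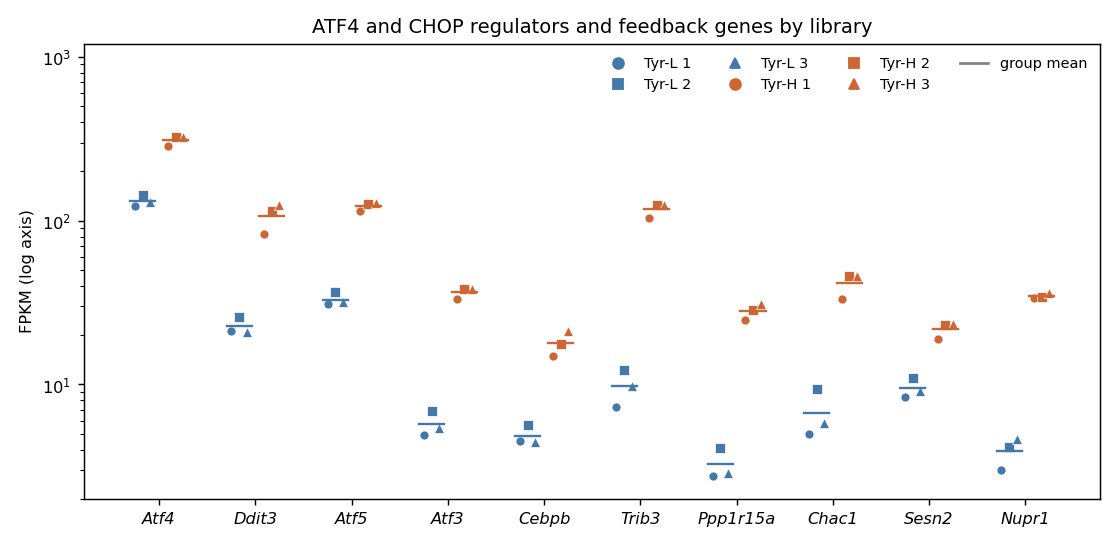
FPKM on a log axis for the 10 genes, with 1 point per library (Tyr-L in blue, Tyr-H in orange, marker shape by library number) and a short line at each group mean (n = 3). In each gene all Tyr-H points lie above all Tyr-L points, *Atf4* is highest at 124 to 144 FPKM against 285 to 325 FPKM, and the gap is widest in *Trib3*.

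The 10 genes thus shared a direction, which their choice had fixed. All 10 had groups that did not overlap and were higher in Tyr-H, which was the case for 20.2% of all tested genes. All 10 also met the rule for a call (adjusted p of at most 0.05 in limma and a log2 fold change of at least 1 in size), as did 2.96% of tested genes in that direction and 5.78% in the other. Nothing is read from these counts, as the contrast had chosen the genes. The median log2 fold change of the 10 was 2.44, beside −0.15 for all tested genes. Relative to the shift of all genes, after median ratio scaling, the median of the 10 was 2.59.

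**Figure D2:**
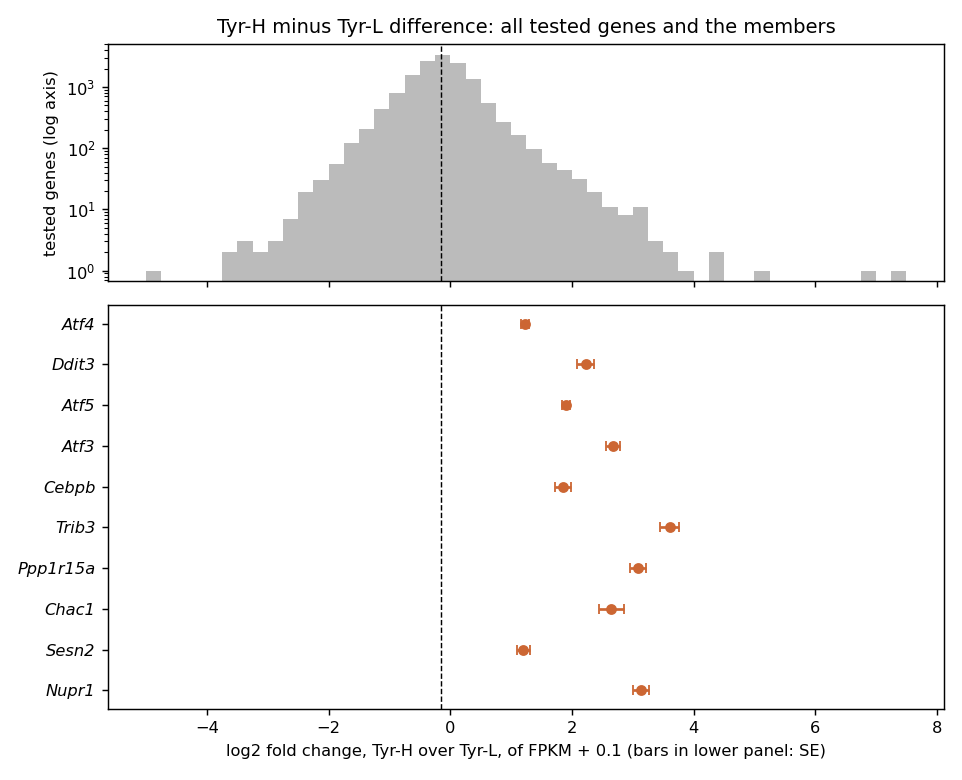
Upper panel: number of tested genes (log axis) by log2 fold change of FPKM + 0.1, Tyr-H over Tyr-L, with the median of all 14336 genes at −0.15 as a dashed line. Lower panel: the log2 fold change of each of the 10 genes with its SE, which ran from 1.20 in *Sesn2* to 3.61 in *Trib3*.

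The composition of the set differed between the groups, which restates the values per gene given above, on which the set was chosen. The genes together summed to 211, 260 and 224 FPKM in Tyr-L and 745, 878 and 899 FPKM in Tyr-H. *Atf4* made up 58.5%, 55.4% and 57.7% of this sum in Tyr-L and 38.2%, 37.0% and 36.2% in Tyr-H, so the genes other than *Atf4* took the larger share in every Tyr-H library. In Tyr-L, *Atf4*, *Atf5* and *Ddit3* came in that order with ranges that did not touch, and from *Trib3* down to *Ppp1r15a* the ranges of neighbours in the order overlapped. In Tyr-H, *Trib3* joined *Atf5* and *Ddit3* at 83.1 to 128 FPKM, with ranges that overlapped. *Chac1*, *Atf3* and *Nupr1* formed the next group at 33.4 to 45.8 FPKM, followed by *Ppp1r15a*, and *Sesn2* and *Cebpb* were lowest. *Sesn2*, next below *Trib3* in Tyr-L at 8.33 to 10.9 FPKM, was thus next to last in Tyr-H.

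Ratios within a library restate the same values without reference to library scaling. The level of *Trib3* was 0.343, 0.472 and 0.465 times that of *Ddit3* in the Tyr-L libraries and 1.25, 1.09 and 1.00 times in the Tyr-H libraries. *Ddit3* stood at 0.171, 0.180 and 0.162 of the *Atf4* level in Tyr-L and at 0.292, 0.352 and 0.384 in Tyr-H. Among the ratios given here, that of *Atf5* to *Atf4* was the steadiest within groups, at 0.246 to 0.253 in Tyr-L and 0.389 to 0.402 in Tyr-H. Other pairs were not compared in this way.

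Libraries of one group differ in ways that the contrast between groups did not use, and within each group the 10 genes largely ordered the libraries alike. This was noticed in the values and is a description. Library 1 of Tyr-H was the lowest of its group in all 10 genes, where it was the lowest in 38.2% of all tested genes. Library 2 of Tyr-L was the highest of its group in 9 of the 10, with *Nupr1* as the exception, against 34.0% of all tested genes. Library 1 of Tyr-L was the lowest in 8 of 10 (33.4% of all genes) and library 3 of Tyr-H the highest in 8 of 10 (32.8%). After median ratio scaling these counts were 9, 9, 9 and 10 in that order. The median deviation from the group mean was −0.18 on the log2 scale for Tyr-H library 1 and 0.22 for Tyr-L library 2, beside −0.01 and 0.00 over all tested genes. All 10 genes share each library, so the counts are not independent observations. By the estimate of depth, library 1 was the shallowest of its group in both Tyr-L (19500000 fragments) and Tyr-H (20400000 fragments), and it was the lowest in 8 and 10 of the 10 genes. The estimate moves in coarse steps and placed library 3 close above, at 20400000 and 21400000 fragments. The depth order of libraries 1 and 3 is therefore uncertain. Library 2 was the deepest in both groups (24500000 fragments) and was the highest in 9 of the 10 genes in Tyr-L and in 2 of the 10 in Tyr-H. The part of depth in this was not tested.

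**Figure D3:**
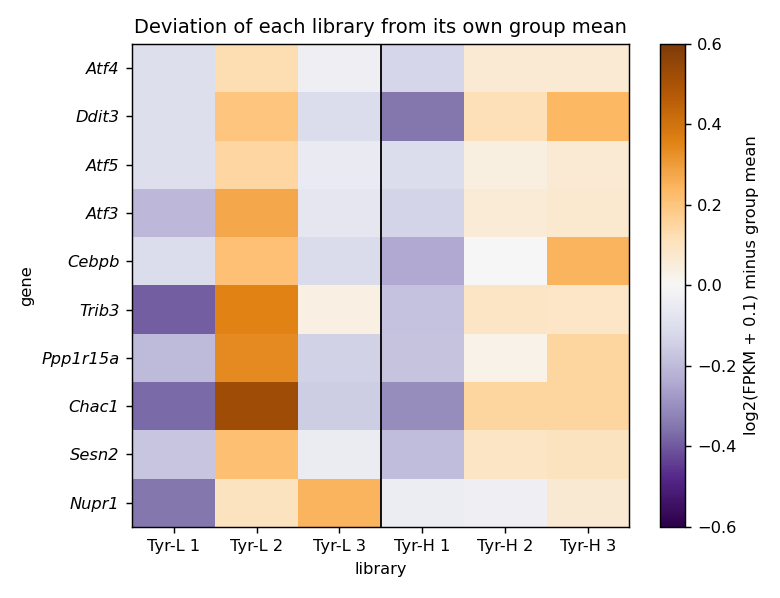
Deviation of log2(FPKM + 0.1) from the mean of the library's own group for the 10 genes (rows) in the 6 libraries (columns), purple below the mean and orange above it. Library 1 of Tyr-H is below its group mean in all 10 rows, and library 2 of Tyr-L is above its group mean in all of them.

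In the list of ATF4 target genes the same libraries were most often at the extremes. Of its 37 tested genes, 30 were highest in Tyr-L library 2 and 31 lowest in Tyr-L library 1 (34.0% and 33.4% of all tested genes). In Tyr-H library 1, 28 were lowest (38.2% of all tested genes), falling to 21 after median ratio scaling (33.4%). Genes of the ATF6 and XBP1 arm, the branch that raises chaperones of the endoplasmic reticulum, were lowest in Tyr-H library 1 in 14 of 16 genes. Among their Tyr-L libraries, 4 of the 16 were highest in library 2 and 10 in library 1 (34.0% and 34.8% of all tested genes). After median ratio scaling these were 6 and 8 (36.2% and 31.4%). The median deviation of Tyr-H library 1 was −0.035 on the log2 scale for the ATF4 target genes and −0.175 for the ATF6 and XBP1 arm, beside −0.178 for the 10 genes. That of Tyr-L library 2 was 0.097, 0.005 and 0.216 in that order.

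Genes next to the 10 in sequence or in the pathway were compared by limma over all 14336 tested genes. Their lists were also drawn up with results of this contrast known, so their counts and p-values describe these libraries and are no independent evidence of a direction. Of 7 paralogs of the set listed, 6 were tested and none was called, beside 2.96% of all tested genes called higher and 5.78% lower. *Trib1* had 1.90 ± 0.115 FPKM in Tyr-L and 2.26 ± 0.361 in Tyr-H (SD, n = 3, log2 fold change 0.23, SE 0.13, adjusted p = 0.17 from limma), with 0.38 under median ratio scaling and 0.41 under quantile normalization (adjusted p = 0.035 and 0.024 from limma). *Trib2* stood at 1.03 ± 0.0265 and 1.03 ± 0.245 FPKM (SD, n = 3, log2 fold change −0.02, SE 0.18, turning to 0.12 after median ratio scaling). The level of *Trib3* was 4.11, 6.27 and 4.97 times that of *Trib1* in the Tyr-L libraries and 51.6, 46.8 and 59.5 times in the Tyr-H libraries.

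*Ppp1r15b*, the constitutive partner of the same eIF2 phosphatase, had 46.3, 50.8 and 48.9 FPKM in Tyr-L and 48.5, 48.4 and 49.8 FPKM in Tyr-H. These ranges overlapped (log2 fold change 0.01, SE 0.041, adjusted p = 0.88 from limma), with −0.09 when each library was rescaled to the same total, 0.09 under quantile normalization and 0.16 under median ratio scaling (adjusted p = 0.011 from limma in the last). The ratio of *Ppp1r15a* to *Ppp1r15b* was 0.0599, 0.0800 and 0.0592 in Tyr-L and 0.509, 0.587 and 0.622 in Tyr-H, so the constitutive gene was the more abundant in every library.

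*Chac2*, an enzyme of the same family as *Chac1*, had 5.33 to 7.22 FPKM in Tyr-L and 5.50 to 7.90 FPKM in Tyr-H (log2 fold change 0.07, SE 0.15, adjusted p = 0.7 from limma, with −0.02 when rescaled to the same total and 0.22 under median ratio scaling). The sestrins other than *Sesn2* passed the adjusted p but not the fold limit: *Sesn1* went from 5.95 ± 0.184 to 3.34 ± 0.244 FPKM and *Sesn3* from 8.44 ± 0.585 to 5.53 ± 0.121 FPKM (SD, n = 3). Their log2 fold changes were −0.81 (SE 0.083, adjusted p = 3.3e-05 from limma) and −0.60 (SE 0.071, adjusted p = 8.3e-05 from limma), lower under every scaling tried. *Sesn2* was 0.947, 1.41 and 1.04 times as abundant as *Sesn3* in the Tyr-L libraries and 3.36, 4.29 and 4.24 times in the Tyr-H libraries. *Nupr2*, listed under its older symbol *Nupr1l*, was not tested, with at most 0.255 FPKM in a library. The differences between these genes and their partners in the set were not tested.

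**Figure D4:**
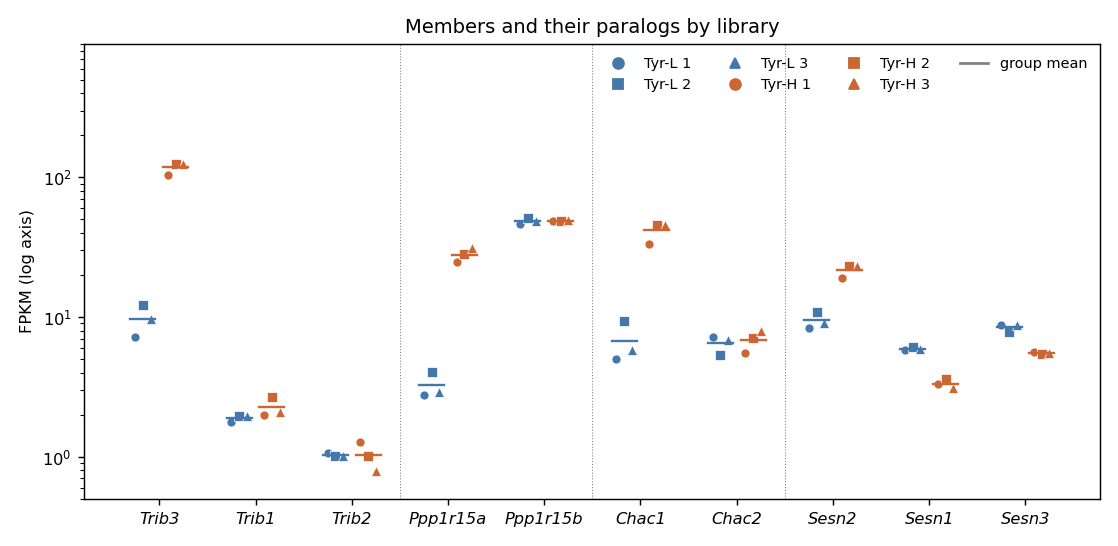
FPKM on a log axis for *Trib3*, *Ppp1r15a*, *Chac1* and *Sesn2*, each followed by its paralogs, with 1 point per library (Tyr-L blue, Tyr-H orange, shape by library number) and a line at the group mean (n = 3). The first gene of each block is higher in Tyr-H, *Ppp1r15b* stays between 46.3 and 50.8 FPKM in all libraries, and *Sesn1* and *Sesn3* are lower in Tyr-H.

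Among other bZIP factors, 1 of 2 tested C/EBP genes was called, and the other, *Cebpd*, had 1.61 ± 0.0161 and 3.08 ± 0.286 FPKM (SD, n = 3), a log2 fold change of 0.89 (adjusted p = 0.00011 from limma). Both were called after median ratio scaling and after quantile normalization. *Cebpg*, a C/EBP protein that dimerizes with ATF4, rose from 11.7 ± 0.778 to 27.8 ± 2.83 FPKM (SD, n = 3, log2 fold change 1.24, SE 0.079, adjusted p = 2.4e-06 from limma). Of 15 tested ATF and CREB genes, 1 was called higher and 1 lower, a share near that of all tested genes (2.96% and 5.78%). The higher one was *Atf6*, the sensor of the unfolded protein response that is cleaved in the Golgi, at 9.54, 9.61 and 9.75 FPKM in Tyr-L and 21.2, 22.7 and 22.5 FPKM in Tyr-H (log2 fold change 1.19, SE 0.047, adjusted p = 2.4e-07 from limma). The lower one, *Creb3l1*, fell outside the rule for named genes and is named after its values were seen: it had 0.433 ± 0.0401 and 0.177 ± 0.0997 FPKM (SD, n = 3, log2 fold change −1.01, adjusted p = 0.021 from limma), at the edge of the fold limit. The median log2 fold change over this list was −0.12.

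None of the 17 genes of eIF2, its kinases, exchange factor and phosphatase, and the GCN2 regulators *Gcn1* and *Impact*, was called, beside 2.96% of all tested genes called higher and 5.78% lower, and the list's median was −0.06. Without the fold limit, 3 of the 17 passed the adjusted p as higher and 6 as lower, beside 17.9% and 39.9% of all tested genes. The largest of these differences, named after its values were seen, was −0.72 on the log2 scale in *Impact*, an inhibitor of GCN2 activation (adjusted p = 9.6e-07 from limma). The kinases that start the branch had small differences. *Eif2ak4* (GCN2, the sensor of uncharged tRNA) had 8.02 ± 0.363 FPKM in Tyr-L and 5.61 ± 0.390 in Tyr-H (SD, n = 3, log2 fold change −0.51, SE 0.074, adjusted p = 0.00031 from limma). *Eif2ak3* (PERK, the sensor of the endoplasmic reticulum) had 8.88 ± 0.278 and 9.96 ± 0.566 FPKM (log2 fold change 0.16, SE 0.062, adjusted p = 0.046 from limma). That p moved with the setting: it was 0.43 when each library was rescaled to the same total (log2 fold change 0.07), 0.058 with the replicate block and 0.055 to 0.15 without Tyr-H library 1 or 2 or any 1 of the Tyr-L libraries, while it was 0.0017 under median ratio scaling and 0.0015 under quantile normalization (log2 fold change 0.32 in both). *Eif2ak2* (PKR, activated by double-stranded RNA) was at −0.30 (SE 0.084, adjusted p = 0.012 from limma) and *Eif2ak1* (HRI, activated by heme shortage) at −0.11 (SE 0.043, adjusted p = 0.046 from limma), a sign that turned to 0.04 after median ratio scaling. The adjusted p of *Eif2ak2* was 0.051 without Tyr-L library 3, 0.15 under median ratio scaling and 0.18 under quantile normalization, and that of *Eif2ak1* was 0.093 with the replicate block and 0.091 to 0.12 without Tyr-H library 1 or 2 or any 1 of the Tyr-L libraries. Rescaling to the same total gave the larger differences of −0.40 in *Eif2ak2* and −0.21 in *Eif2ak1* (adjusted p = 0.0026 and 0.0037 from limma). These are transcript levels, and the phosphorylation of eIF2 was not measured here.

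Of 38 ATF4 target genes outside the set, 37 were tested, 21 were called higher and none lower, beside 2.96% and 5.78% of all tested genes. As the list was made knowing this contrast, nothing is read from the count against that background. The list's median log2 fold change was 1.18, with a range of −0.05 to 3.06. Without the fold limit, 36 of the 37 passed the adjusted p as higher, where 17.9% of all tested genes did so (39.9% passed as lower). The exception was the cationic amino acid transporter *Slc7a3*, with about 0.1 FPKM in both groups. Among the largest increases were *Vldlr*, a lipoprotein receptor, from 0.303 ± 0.0293 to 3.27 ± 0.405 FPKM (SD, n = 3, log2 fold change 3.06, adjusted p = 7.8e-07 from limma), and *Pycr1*, an enzyme of proline synthesis, from 1.45 ± 0.250 to 12.6 ± 1.57 FPKM (SD, n = 3, log2 fold change 3.04, adjusted p = 3.7e-07 from limma). Because *Vldlr* was low in Tyr-L, its value depended on the pseudocount, and with 1 in place of 0.1 it was 1.71, below *Pycr1* (2.47), *Slc6a9* (2.22) and *Gdf15* (2.12). The glycine transporter *Slc6a9* was at 2.56 and the stress cytokine *Gdf15* at 2.35 on the log2 scale (adjusted p = 9.6e-07 and 9.4e-07 from limma). Among these promoters, 12 of 40 held TGATGNAA (30%) and 10 held TGATGCAA (25%), the letters shared by *Chac1*, *Atf3* and *Nupr1*. In the window of 100 bases before the start these were 8 (20%) and 5 (12.5%). Some of these targets are in the list because such elements were known in them.

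Of 6 genes known as effectors of CHOP, 1 was called, beside 2.96% of all tested genes called higher and 5.78% lower. *Ero1l* (Ero1a), an oxidase of the endoplasmic reticulum, rose from 53.1 ± 5.29 to 199 ± 15.9 FPKM (SD, n = 3, log2 fold change 1.91, SE 0.076, adjusted p = 2.5e-07 from limma). Without the fold limit, 4 of the 6 passed as higher, with *Bbc3*, *Tnfrsf10b* and *Car6* beside *Ero1l*, and 2 as lower, where 17.9% and 39.9% of all tested genes did. The 2 lower ones were *Bcl2*, a survival gene that CHOP is known to repress, at −0.52, and the death gene *Bcl2l11* at −0.73 on the log2 scale (adjusted p = 0.00026 and 0.0018 from limma).

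Of the 16 genes of the ATF6 and XBP1 arm, 1 was called (beside 2.96% of all tested genes higher and 5.78% lower), the chaperone cofactor *Dnajb9*, which rose from 10.2 ± 0.414 to 26.5 ± 5.22 FPKM (SD, n = 3, log2 fold change 1.35, SE 0.118, adjusted p = 1.4e-05 from limma). *Hspa5*, the chaperone BiP, had 348, 325 and 325 FPKM in Tyr-L and 411, 555 and 569 FPKM in Tyr-H (log2 fold change 0.61, SE 0.106, adjusted p = 0.00094 from limma), under the fold limit. *Xbp1* was at 0.51 (SE 0.071, adjusted p = 0.00025 from limma). The list's median was −0.0046. Without the fold limit, 6 of its genes passed the adjusted p as higher and 4 as lower, beside 17.9% and 39.9% of all tested genes, the latter being *Hsp90b1*, *Sec61b*, *Pdia6* and *Dnajb11*.

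**Figure D5:**
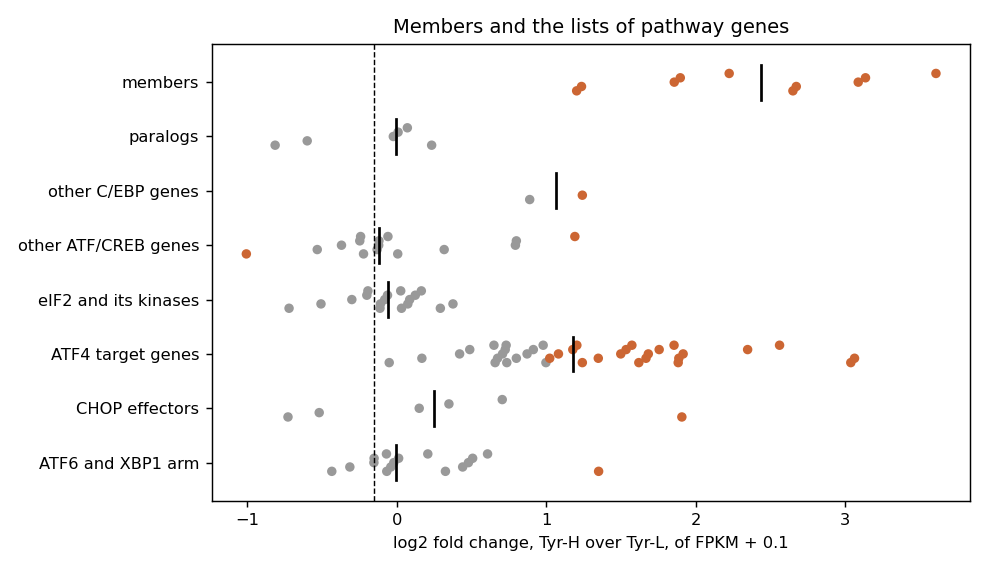
Log2 fold change of FPKM + 0.1, Tyr-H over Tyr-L, with 1 point per tested gene (orange where called, grey where not), a black bar at the median of each list and a dashed line at the median of all tested genes, −0.15. The 10 chosen genes have a median of 2.44 and the 37 ATF4 target genes one of 1.18, and the medians of the paralogs and of the ATF6 and XBP1 arm lie near 0.

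The genes most like *Atf4* over the 6 libraries, by the root mean square difference of centred log2(FPKM + 0.1), were *Cebpg* (0.030), *Larp1b* (0.040) and *Cdc42ep1* (0.040). *Cebpg* had 10.9, 12.5 and 11.7 FPKM in Tyr-L and 24.6, 29.6 and 29.3 FPKM in Tyr-H. Its ratio between the means, 2.38, was close to the 2.35 of *Atf4*. Tyr-L library 2 and Tyr-H library 1 stood out in the same directions in *Cebpg*, *Larp1b* and *Cdc42ep1*. These genes were picked for likeness over all 6 libraries, so this agreement follows from the choice. Those most like *Ddit3* were *Atp2a3* (0.122), *Prnd* (0.125) and *Eno2* (0.128), at a greater distance. Of these, *Eno2*, the neuronal form of enolase, had 2.68, 2.95 and 2.73 FPKM in Tyr-L and 10.0, 12.3 and 13.1 FPKM in Tyr-H, and *Atp2a3* and *Prnd* were under 1 FPKM in every library. The likeness was taken over the contrast that chose the genes and the libraries are few, so many genes can come close.

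Overlaps with other annotated genes bear on 6 of the 10 (*Ddit3*, *Atf5*, *Atf3*, *Cebpb*, *Ppp1r15a* and *Sesn2*), since reads were not stated to be counted by strand. Of the overlapping genes with a level of 1 FPKM or more, *Mars*, *Nup62* and *Tmem189*, the last one differed most between groups and in the direction opposite to that of *Cebpb*. The values of *Atf4*, *Trib3*, *Chac1* and *Nupr1* touch no other annotated gene. Of the pathway genes named with their values, *Cebpg*, *Cebpd*, *Atf6*, *Slc6a9*, *Trib2*, *Chac2*, *Sesn1*, *Ppp1r15b*, *Eif2ak1*, *Eif2ak2*, *Eif2ak3*, *Impact*, *Bcl2* and *Dnajb9* overlap another gene as well, and their values are uncertain to that extent.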

How the data were processed

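RNA of 3 Tyr-L and 3 Tyr-H libraries had been extracted with TRIzol and prepared with an mRNA-seq kit. The authors deposited 1 table per library with FPKM values, which scale fragments by transcript length and by the mapped fragments. The submitters' processing notes name Trimmomatic, HISAT2, HISAT and the genome build GRCm38.p6, without versions or roles. The quantifier and any strand setting are not given in the sources used here. Genes not listed in a table were taken as 0 FPKM, since no deposited value is 0. The files hold no counts, so depth was estimated from FPKM times transcript length, in genes whose longest transcript has 1500 nt or more. The most frequent value among the small products was taken to stand for 1 fragment. This estimate is approximate and covers counting error only.

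Groups and replicate numbers came from the labels. Genes averaging 0.1 FPKM or more were compared on log2(FPKM + 0.1), all 6 libraries in 1 fit, with limma 3.58.1 in R 4.3.3 (eBayes with trend, two-sided, Benjamini-Hochberg adjustment over 14336 genes). Fold changes on this scale understate those of low genes. A call needed an adjusted p no higher than 0.05 and a log2 fold change of 1 or more in size, as in the study's thresholds. The procedure was tested on simulated data. An exact permutation test of 3 against 3 cannot go below p = 0.1 and was not used. Means, SD, ratios and deviations were computed in Python 3.11.15 with numpy 2.4.6 and pandas 2.3.3, and plots were drawn with matplotlib 3.10.9. Before averaging, libraries were compared: the median absolute log2 difference was 0.095 to 0.114 within and 0.315 to 0.371 between groups, and no pair shared more than 1 identical value.

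Coordinates came from GENCODE M21 (GRCm38), which held 20709 of the 20788 identifiers, and promoters from RefSeq (GRCm38.p6). Protein sequences were not used here. The 10 genes and all lists were chosen with earlier results of these data known. Named are the 10 genes, their paralogs, up to 4 called genes per list and direction with a mean of at least 1 FPKM, the eIF2 kinases, *Hspa5*, *Xbp1*, the 3 genes most like *Atf4* and *Ddit3*, *Tyr*, the cell type markers and overlapping genes. *Mitf* and genes named from counts of 5 or fewer were chosen after their values were seen. *Cebpg* and *Jdp2* stand in 2 lists, and *Cebpa*, *Cebpe* and *Stc2* had no value in the tables used. Alternatives were pseudocounts of 0.01 and 1, no filter, a mean of at least 1 FPKM, 3 other scalings, eBayes without trend, leaving out each library, the replicate number as a block, no fold limit, a shorter promoter window and a stricter motif.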

Additional observations from a re-analysis of the deposited data

How the results depend on the processing

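As a description of values that chose the genes, the median log2 fold change of the 10 genes ran from 2.32 to 2.57 with each library left out in turn, beside 2.44. Of 150 log2 fold changes of single members under alternatives, 146 moved by less than 1 SD between libraries. The others were *Ppp1r15a* (2.78) and *Nupr1* (2.87) with a pseudocount of 1, and *Atf4* (1.39) and *Atf5* (2.05) after median ratio scaling. Over all genes 1254 were called, 388 with a pseudocount of 1, 640 where genes had to average 1 FPKM or more, 8292 without the fold limit and 1149 to 1279 with a library left out. Calls divided into 425 higher and 829 lower genes, but into 457 and 1287 when rescaled to a total of 1000000, 544 and 580 after median ratio scaling, 611 and 491 after quantile normalization, and 185 and 203 with a pseudocount of 1. Median ratio scaling moved the median of all genes from −0.15 to −0.01. Of the pathway lists 25 different genes were called, 23 to 27 with a library left out and 73 without the fold limit. With the promoter window shortened to 100 bases before the start, 1 promoter of the 10 genes held TGATGNAA in place of 4, and 0 held TGATGCAA. *Creb3l1* is the call that was lost from the ATF and CREB list with a pseudocount of 1, a mean of at least 1 FPKM, median ratio scaling, quantile normalization, or without Tyr-L library 2 or 3 or Tyr-H library 2, which left 1 call of 2.

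Signs turned for genes near 0 that had no call: *Chac2* to −0.024 and *Ppp1r15b* to −0.087 when rescaled to a total of 1000000, and *Trib2* to 0.12 and *Eif2ak1* to 0.040 after median ratio scaling, or 0.16 and 0.018 after quantile normalization. With a library left out, *Chac2* ran from −0.063 to 0.21, *Ppp1r15b* from −0.028 to 0.040 and *Trib2* from −0.18 to 0.13. Same-numbered libraries did not deviate together (correlations 0.0223, 0.0132 and −0.0834 across genes), and libraries did not all correlate best with their own number. With the replicate number as a block, 1258 genes were called, among them 25 different list genes, and the median of the members was 2.44. The number of libraries and the unstated counting method limit all values.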
